A study of Bos taurus with 9 samples.

Results

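The control metaphase II oocytes of cattle (Bos taurus) were described by their own messenger RNA, from the 3 control libraries of a series of 9. The other 6 libraries came from oocytes treated with microplastics, alone or with taurine. Their values enter no level given here, but which genes the expression table holds depends on all 9 libraries. Control oocytes were untreated female germ cells at metaphase II, chosen by their treatment label alone. Total RNA was taken from them with TRIzol and made into libraries by the sequencing provider's standard protocol. The labels name no animal, culture or number of oocytes for a library, so the spread between libraries may be technical.

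A metaphase II oocyte has completed the first meiotic division and is arrested at the second metaphase, with condensed chromosomes and a genome that is not transcribed. Its RNA was made earlier, during growth in the follicle, and is stored, translated or degraded on a schedule until the embryo starts its own transcription. The arrest is held by cyclin B with its kinase and by the MOS pathway, which keeps the anaphase-promoting complex inactive. Maturation also starts the removal of maternal transcripts, which begins with the shortening of their poly(A) tails.

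Levels are given as TPM, a gene's share of the transcripts of a library with transcript length taken into account. Every triplet of values follows the order control 1, control 2, control 3, and n = 3 libraries for each mean ± SD. Reads are the estimated counts of the expression table, and a gene is called silent where it had under 3 reads in each of the 3 libraries. The libraries held 21989188, 22257621 and 21582200 reads, so 3 reads stood for 1.35e-05 to 1.39e-05% of a library. Such floors cover counting error only, since reads are not independent molecules.

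The expression table held 22590 transcripts of 17852 genes. At least 3 reads were found for 14159, 14287 and 14283 genes, and 13225 genes reached this in all 3 libraries. At least 1 TPM was found for 9738, 9774 and 10337 genes, 9221 of them in all 3 libraries. At least 1000 TPM was found for 150, 156 and 153 genes. Genes typed as protein-coding in RefSeq held 95.0% ± 0.333 of all TPM, and genes of the mitochondrial genome are not analysed here.

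Levels of markers of the oocyte and of the cells around it are given beside the label. The lists were chosen with earlier results of these data known, so these levels are a description and no check of the label. All 15 oocyte markers reached 1 TPM in all 3 libraries and 14 reached 10 TPM, with a summed level of 74887 to 80410 TPM, or 7.49 to 8.04% of the library. BTG4, a partner of the CCR4-NOT deadenylase that is needed to clear maternal mRNA, stood at 30228, 30220.0 and 27757 TPM. The lowest of the 15 was NLRP5, a protein of the subcortical maternal complex, at 5.12, 5.76 and 11.5 TPM. NPM2, a chaperone of maternal chromatin, stood at 207, 86.5 and 273 TPM and was lowest in control 2. ZAR1, which binds stored mRNA, stood at 48.4, 45.8 and 64.1 TPM.

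Markers of other cells were low in sum. The cumulus and granulosa list had 20 of its 21 genes in the table and summed to 176 to 273 TPM. Of the 20, 10 were at 1 TPM or more in all libraries, near the share of all genes (9221 of 17852). STAR, which carries cholesterol into mitochondria, led the list with 80.5, 88.2 and 169 TPM. HAS2, which makes the hyaluronan of the expanded cumulus, followed with 37.5, 44.2 and 35.1 TPM. SERPINE2 (mean 23.6 TPM), GJA1 (11.5 TPM), PTGS2 (6.3 TPM) and VCAN (4.38 TPM) were above the median of all genes, 1.71 TPM. So were INHBA (2.3 TPM), GREM1 (2.29 TPM), PTX3 (2.17 TPM) and, through control 2, the mean of TNFAIP6 (30.9 TPM). FSHR, the receptor for follicle-stimulating hormone, was at 0 in all 3 libraries, and AMH (0.03, 0 and 0.07 TPM) and LHCGR (0.04, 0.04 and 0.07 TPM) had at most 3 reads. CYP19A1, the aromatase of granulosa cells, stood at 0.15, 0.19 and 0.2 TPM. In bulk RNA, fewer cells of a type and less RNA per cell cannot be told apart.

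One cumulus gene differed sharply between libraries. TNFAIP6, which crosslinks cumulus hyaluronan, stood at 1.34, 88.8 and 2.46 TPM, from 19, 1251 and 32 reads, so that it was over 10 times as high in control 2 as in either other library. Theca and stroma markers summed to 7.33 to 18.8 TPM and endothelial markers to 4.38 to 10.1 TPM. Of 6 endothelial markers in the table, PECAM1 and CLDN5 were at 0. Another 3 (TEK, KDR and VWF) reached 1 TPM in all libraries, near the share of all genes (9221 of 17852). Leukocyte markers summed to 7.95 to 11.7 TPM and sperm markers to 0.17 to 0.44 TPM. Of 11 leukocyte markers, CD14, ITGAM and CD74 were at 0. CD3E (4.05, 6.18 and 5.56 TPM) and CD3D (1.53, 3.47 and 1.25 TPM) were the only 2 at 1 TPM in all libraries, fewer in proportion than all genes. Erythroid markers summed to 95.9 to 169 TPM, nearly all of it on the alpha-globin rows HBA1 (104, 35.5 and 54.8 TPM) and HBA (62.6, 60.01 and 41.9 TPM), whose reads were divided between near-identical copies. ALAS2 and SLC4A1, which define red cells, had at most 2 reads. The part of other cells in the levels given below was not tested.

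A small number of genes held much of the RNA. The most abundant gene alone held 5.91% ± 0.401 of TPM. The 10 most abundant genes held 21.3% of mean TPM, the 100 most abundant 45.2% and the 1000 most abundant 81.8%. It took 139 genes to make up 50% of TPM and 1877 to make up 90%. By reads, which do not correct for length, the same shares took 290 and 3063 genes. Of the 10 most abundant genes by mean TPM, 9 were among the 10 highest in every library, and of the first 100, 86 were among the 100 highest in every library.

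**Figure D1:**
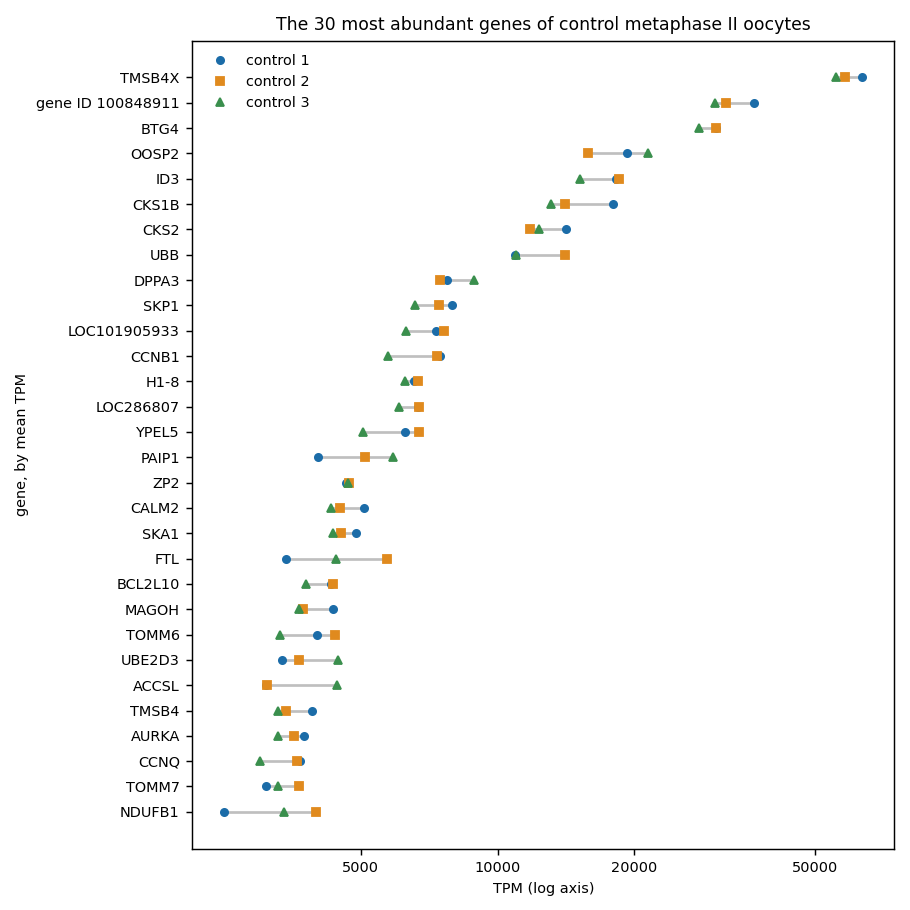
Level of the 30 most abundant genes in each control library, in TPM on a log axis, ordered by mean; points are libraries and the line joins the lowest to the highest. TMSB4X stands apart at 55661 to 63506 TPM, and the other 29 genes fall between 2505 and 36591 TPM, most of them overlapping their neighbour.

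TMSB4X ranked first in all 3 libraries, at 63506, 58104 and 55661 TPM. It encodes thymosin beta 4, a small protein that binds and stores monomeric actin. The gene ranked 2, which the reference table did not match and which the expression table gives as gene ID 100848911, stood at 36591, 31772 and 30120.5 TPM. Its reads were divided over 6 transcripts, and both genes were highest in control 1 and lowest in control 3. BTG4 ranked 3 in every library.

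OOSP2, an oocyte-secreted protein, ranked 4 at 19222, 15821 and 21407 TPM, lowest in control 2. ID3, an inhibitor of basic helix-loop-helix factors, ranked 5 at 18194, 18496 and 15145 TPM. The ranges of OOSP2 and ID3 overlapped, and ID3 was the higher of the pair in control 2. UBB, a polyubiquitin gene, ranked 8 at 10935, 14106 and 10979 TPM, highest in control 2, with its reads divided among similar rows.

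CKS1B and CKS2 encode the pair of small subunits that bind cyclin-dependent kinases. CKS1B stood at 17953, 14040.5 and 13115 TPM. CKS2 stood at 14134, 11798 and 12354 TPM, and the ranges overlapped. By reads the order was the other way in every library, with 60216, 46943 and 40161 reads for CKS1B and 118685, 98358 and 94775 reads for CKS2. CKS1B had an implied length of 163 nt and CKS2 of 407 nt. The implied length is the effective length that reconciles the reads of a row with its FPKM, and a short one raises TPM for the same reads.

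DPPA3, a maternal factor that protects the maternal genome from demethylation, ranked 9 at 7728, 7459 and 8874 TPM, highest in control 3. SKP1, a subunit of SCF ubiquitin ligases, ranked 10 at 7956, 7446 and 6578 TPM. The ranges of DPPA3 and SKP1 overlapped, while UBB was above DPPA3 with no overlap. CCNB1, the cyclin that activates CDK1, ranked 12 at 7463, 7340.2 and 5735 TPM and was lowest in control 3. H1-8, the linker histone of oocytes, ranked 13 at 6562, 6694 and 6268 TPM, with close values in all 3 libraries.

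Among the 29 pairs of neighbours in the ranking of 30 genes, the ranges did not overlap in 3: TMSB4X over gene ID 100848911, BTG4 over OOSP2, and UBB over DPPA3. The order of the other neighbours is within the spread of these libraries. The coefficient of variation (CV) over libraries ran from 0.858% for ZP2, an egg coat glycoprotein, to 25.4% for FTL, the ferritin light chain, with a median of 9.91%. Of the 30 genes, 10 had a transcript whose reads were not whole numbers, the mark of reads divided among similar transcripts. These can be transcripts of the same gene, as in DPPA3, whose summed reads were whole (214047, 205024 and 223870), or of other genes.

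ZP2 stood at 4636, 4717 and 4679.5 TPM. FTL stood at 3425, 5716 and 4418 TPM, lowest in control 1 and highest in control 2, with divided reads. PAIP1, which binds the poly(A)-binding protein and stimulates translation, stood at 4028, 5121 and 5878 TPM, lowest in control 1 and highest in control 3. LOC286807, which RefSeq lists with the synonym SMT3B, stood at 6690.1, 6704 and 6070.5 TPM. YPEL5 stood at 6250.0, 6716 and 5062 TPM and LOC101905933 at 7307, 7636 and 6274 TPM, both lowest in control 3.

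The lower members of the 30 covered several roles. SKA1, which couples kinetochores to microtubules, stood at 4581 ± 269.5 TPM, and AURKA, the spindle-pole kinase, at 3532 ± 232 TPM. MAGOH, a core protein of the exon junction complex, stood at 3910.2 ± 382 TPM. UBE2D3, a ubiquitin-conjugating enzyme, stood at 3814 ± 568 TPM. TOMM6 and TOMM7, small subunits of the mitochondrial import pore, stood at 3906 ± 540.1 TPM and 3345 ± 293 TPM. ACCSL stood at 3097, 3109 and 4438 TPM, highest in control 3, and CCNQ, a cyclin, at 3669.9, 3622 and 2999 TPM, lowest there.

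NDUFB1, a subunit of respiratory complex I, closed the 30 at 2505, 3978 and 3396 TPM. It had an implied length of 64.4 nt and 3325, 5276 and 4132 reads, and ranked 929 by reads. Of the 30 most abundant genes, 9 had an implied length under 500 nt and 2, CKS1B and NDUFB1, under 200 nt. All transcripts with an implied length under 200 nt, 147 in number, held 4.00% ± 0.292 of TPM and 0.525% of reads.

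The class of the shortest genes had the highest median level in TPM. For this, the 9221 genes at 1 TPM in all libraries were divided by implied length into 5 classes of nearly equal size. The shortest class (median 651 nt) held 57.3% of TPM and the longest (median 4590 nt) 2.47%. The median level was 32.1 TPM in the shortest class and 16.2, 13.1, 9.62 and 5.96 TPM in the others, in order of length. By reads the classes held 28.6, 22.9, 23.5, 13.4 and 10.8% in that order.

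By function, 32 lists of genes were used, each gene entering at most 1 list, and 31 had a member in the table. They took in 2901 genes, which held 46.98% ± 0.902 of TPM and 39.6% of reads. The remaining 14951 genes held 53.02% ± 0.902 of TPM, led by gene ID 100848911 and ID3. The share was over 1% of TPM in 13 lists, and in 9 lists a single member held over 50% of the list. Of the 2901 listed genes, 2019 were at 1 TPM or more in all libraries, beside 9221 of all 17852 genes. Each count of list members at 1 TPM given below is to be read beside these shares. The members are given below by role.

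**Figure D2:**
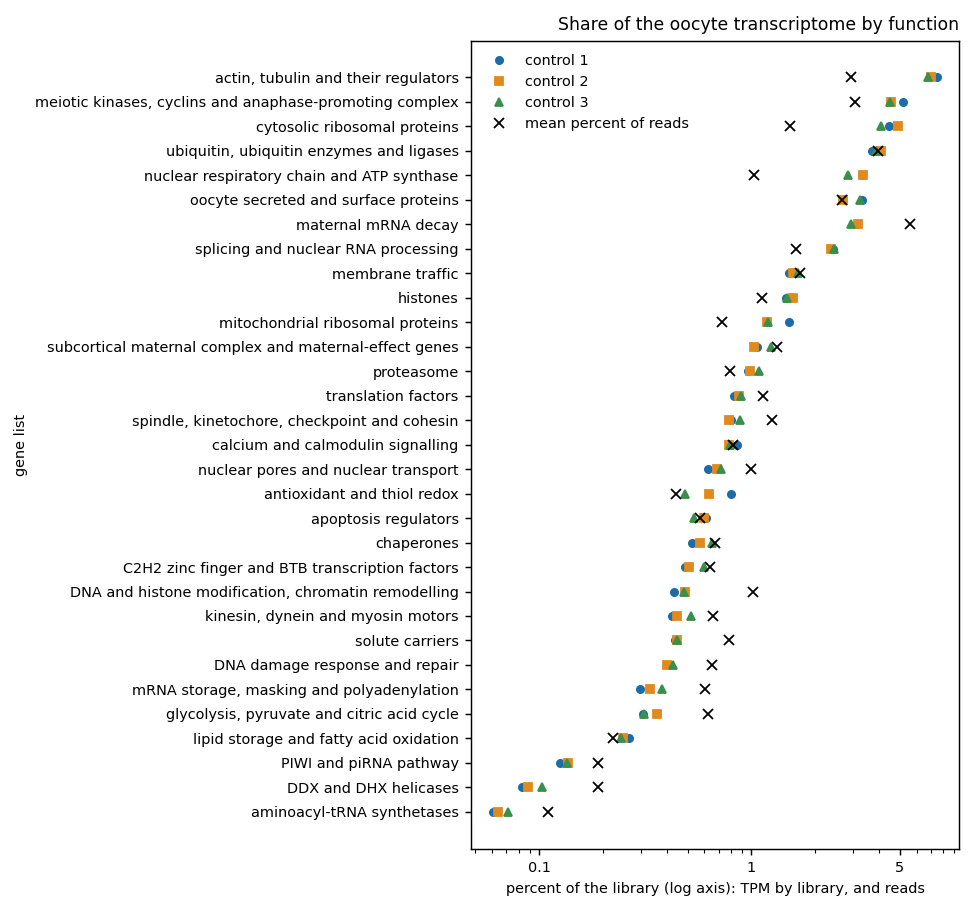
Share of each functional list in the 3 control libraries, in percent of TPM on a log axis, with the mean percent of reads as a cross. Actin, tubulin and their regulators lead with a mean of 7.11% of TPM, and the ribosomal and respiratory-chain lists hold a lower share of reads than of TPM.

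Proteins that the oocyte secretes or carries on its surface held 3.09% ± 0.331 of TPM and 2.68% of reads, with 12 of 13 members at 1 TPM or more in all libraries. OOSP2 alone held 60.9% of the list. Of the egg coat glycoproteins, ZP4 stood at 3926, 2286 and 1382 TPM, over 2 times as high in control 1 as in control 3. ZP3 stood at 987, 457 and 733 TPM, lowest in control 2. ZP2 was above both in every library, and the ZP2 to ZP4 ratio of TPM was 1.18, 2.06 and 3.39.

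BMP15, a growth factor that the oocyte secretes to its follicle cells, stood at 2484, 2972 and 3491 TPM, and its relative GDF9 at 1481, 438 and 596 TPM. BMP15 was lowest and GDF9 highest in control 1, and the ranges of the pair did not overlap. The BMP15 to GDF9 ratio of TPM was 1.68, 6.79 and 5.86. FGF16, another secreted growth factor, stood at 87.6, 86.8 and 149 TPM and BMP6 at 13.9, 15.3 and 18.9 TPM. FGF8 had 4 reads in control 1 and 0 in the other libraries.

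BMP15 held 75.9% ± 12.9 of the TPM of these 5 growth factors, one of 31 sets of related genes that were assembled after the values had been seen. Across the 31 sets, the ranges of the highest and the second member did not overlap in 27, and the highest held over 90% of the set in 8. The overlapping pairs were CKS1B with CKS2, SMC1B with RAD21, NLRP8 with NLRP14 and ITPR1 with ITPR2. The members were put in order by these same levels, so the lead of the first member is a description.

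**Figure D3:**
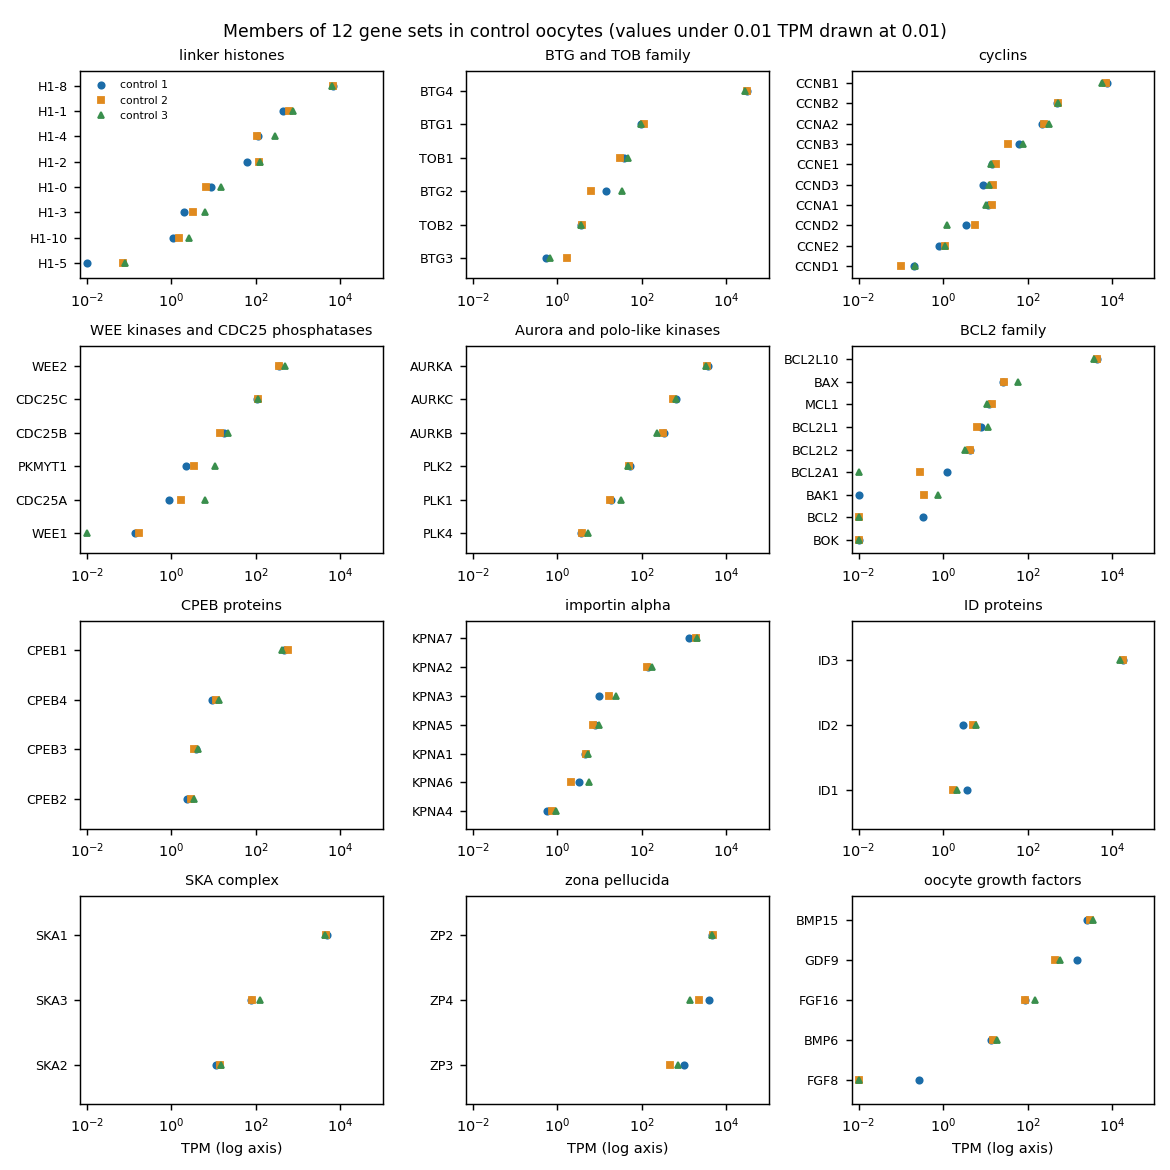
Level of each member of 12 sets of related genes in the 3 control libraries, in TPM on a log axis with values under 0.01 drawn at 0.01. In most sets 1 member sits above the rest in all 3 libraries, as BTG4, ID3, CPEB1 and BCL2L10 do.

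Maternal mRNA decay held 3.09% ± 0.133 of TPM and 5.6% of reads, and BTG4 made up 95.2% of the list. BTG4 had 1213421, 1201396 and 1020688 reads, or 5.22% ± 0.425 of all reads, more than any other gene. BTG1, the next BTG or TOB gene, stood at 97.8, 112 and 93.7 TPM, and the BTG4 to BTG1 ratio of TPM was 309, 270.0 and 296. BTG4 held 99.4% ± 0.0784 of the 6 genes of that set.

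The deadenylases themselves were far lower than BTG4. CNOT7, a catalytic subunit of CCR4-NOT, stood at 331, 270.5 and 250.4 TPM and CNOT8 at 123, 107 and 102 TPM. CNOT6L, the subunit of the other catalytic type known to act in oocytes, stood at 23.3, 22.6 and 25.2 TPM, above its relative CNOT6 at 7.93, 5.89 and 9.78 TPM. ZFP36L1, which binds AU-rich elements, stood at 122, 227 and 189.6 TPM. PABPN1L, an oocyte poly(A)-binding protein, stood at 132, 119.6 and 221 TPM, highest in control 3.

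The machinery that stores, masks and polyadenylates mRNA held 0.336% ± 0.0412 of TPM and 0.604% of reads. EIF4E, the cap-binding protein, stood at 1207, 1139 and 1183 TPM, with close values in all libraries. EIF4E1B, its oocyte paralog, stood at 84.97, 81.4 and 249 TPM, highest in control 3. CPEB1, which binds the cytoplasmic polyadenylation element, stood at 457, 583 and 414 TPM and held 96.3% ± 1.02 of the 4 CPEB genes.

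YBX1, an mRNA-masking protein, stood at 174, 228 and 589.9 TPM, and YBX2, its germ cell relative, at 29.9, 42.8 and 90.5 TPM. Both were highest in control 3. PABPC1L, the embryonic poly(A)-binding protein, stood at 2.14, 2.81 and 4.55 TPM, below PABPC1 at 81.6, 98.9 and 93.4 TPM. G3BP1, a stress granule protein, stood at 258, 435 and 240.4 TPM, highest in control 2.

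Meiotic kinases, cyclins and the anaphase-promoting complex held 4.75% ± 0.381 of TPM and 3.08% of reads, with 51 of 58 members at 1 TPM or more in all libraries. CKS1B, CKS2, CCNB1 and AURKA together held 80.4% of the list. CCNB1 held 88.4% ± 2.37 of 10 cyclins. CCNB2, the other main mitotic B cyclin, stood at 499, 535 and 518 TPM, and the CCNB1 to CCNB2 ratio of TPM was 14.97, 13.7 and 11.1.

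CCNA2, the cyclin of S phase and mitosis, stood at 224, 244 and 321 TPM. CCNB3, which acts at the first meiotic division, stood at 61.6, 33.5 and 79.3 TPM, lowest in control 2. Cyclins of the G1 phase were lower still. CCNE1 stood highest of them at 14.4, 18 and 13.7 TPM, followed by CCND3 at 8.9, 15.3 and 12.4 TPM and CCND2 at 3.46, 5.53 and 1.24 TPM. CCNE2 stood at 0.8, 1.12 and 1.09 TPM and CCND1 at 0.2, 0.1 and 0.22 TPM.

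CDK1, the kinase partner of cyclin B, stood at 55.5, 44.02 and 53.03 TPM, far below its cyclin. WEE2, the oocyte kinase that inhibits CDK1, stood at 359.7, 345 and 495 TPM, while WEE1, its somatic relative, had at most 8 reads. CDC25C, a phosphatase that activates CDK1, stood at 108, 113 and 110.3 TPM. CDK7, the CDK-activating kinase, stood at 812, 814 and 806 TPM, with close values in all libraries. CDK2 stood at 189, 163 and 182 TPM.

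MOS, the kinase that starts the pathway of metaphase II arrest, stood at 1234, 1455 and 1721 TPM, lowest in control 1 and highest in control 3. Of the Aurora and polo-like kinases, AURKA held 78.2% ± 0.895. AURKC, the Aurora kinase of meiosis, stood at 640.0, 555 and 639.8 TPM and AURKB at 343, 309 and 229 TPM, with no overlap. PLK1, a kinase of the spindle and kinetochore, stood at 19.2, 18.1 and 33.01 TPM.

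Spindle, kinetochore, checkpoint and cohesin genes held 0.821% ± 0.0553 of TPM and 1.25% of reads. CENPU, a centromere protein, stood at 1105, 1257 and 1528 TPM and CDCA8, a chromosomal passenger, at 552, 700.4 and 841 TPM. Both were lowest in control 1 and highest in control 3. MAD2L1, the spindle checkpoint protein, stood at 1325, 1262 and 1245 TPM. CENPW stood at 804, 737 and 769 TPM.

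SKA1 held 97.7% ± 0.669 of its complex by TPM, above SKA3 at 78.1, 82.6 and 123 TPM and SKA2 at 11.6, 14.1 and 15.1 TPM, although the 3 proteins act as 1 complex. Of cohesin subunits, SMC1B, the meiotic one, stood at 59.4, 77.02 and 78.8 TPM. RAD21, a kleisin, stood at 61.4, 54.6 and 82.8 TPM, overlapping SMC1B. REC8, the meiotic kleisin, had 0, 4 and 2 reads. The reads of REC8 are at or near the floor of 3.

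Histones held 1.5% ± 0.0664 of TPM and 1.12% of reads, 43.3% of the TPM in H1-8. H1-1, the next linker histone, stood at 444, 601 and 732 TPM, and the H1-8 to H1-1 ratio of TPM was 14.8, 11.1 and 8.56. H1-5 had at most 1 read. H3-3B and H3-3A, which encode the replacement histone H3.3, stood at 2657, 2286 and 1983 TPM and 1423, 1200.1 and 1312 TPM. H2AC12 stood at 816, 2006 and 1030.0 TPM, highest in control 2.

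DNA and histone modifiers held 0.465% ± 0.031 of TPM and 1.02% of reads. Of these genes, 88 of 141 were at 1 TPM or more in all libraries, beside 9221 of all 17852 genes. ASF1B and ASF1A, chaperones of histones H3 and H4, stood at 1252 ± 179 TPM and 439 ± 19.8 TPM. UHRF1, which recruits the maintenance methyltransferase, stood at 784, 998 and 925 TPM, and UHRF2 at 292, 301 and 246 TPM. DNMT1, that methyltransferase, stood at 19.5, 19.4 and 41.3 TPM, highest in control 3.

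The de novo methyltransferases were low. DNMT3B stood at 8.61, 11.02 and 11.7 TPM and DNMT3A at 0.31, 0.44 and 0.86 TPM, and DNMT3L, their germ line cofactor, was at 0 in every library. TET3, the maternal TET dioxygenase, stood at 14.5, 20.1 and 16.03 TPM, and TET1 had at most 8 reads. These genes are known to act earlier, during oocyte growth, or later, in the embryo.

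Maternal-effect and subcortical maternal complex genes held 1.11% ± 0.115 of TPM and 1.33% of reads, DPPA3 making up 72.3% of the list's TPM. ZAR1L, a relative of ZAR1, stood at 672, 835 and 1195 TPM. OOEP, a core protein of the subcortical maternal complex, stood at 783, 785 and 813 TPM and held 80.7% ± 2.85 of the 5 complex genes. KHDC3L stood at 76.8, 128 and 68.6 TPM, TLE6 at 46.6, 51.3 and 108 TPM and PADI6 at 21.6, 11.9 and 36.6 TPM.

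FIGLA, the transcription factor that turns on the zona genes in growing oocytes, stood at 383, 269.6 and 204 TPM, highest in control 1. Of the NLRP genes, NLRP8 stood at 85.5, 86.5 and 139 TPM, overlapping NLRP14 at 75.9, 87.3 and 115 TPM. NLRP9 stood at 87.9, 78.2 and 111 TPM, in the same range.

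Ubiquitin, its enzymes and ligases held 3.88% ± 0.206 of TPM and 3.94% of reads over 306 genes, whose median level was 5.5 TPM. UBB alone held 30.9% of the list. The proteasome held 1.01% ± 0.0654 of TPM and 0.789% of reads, with 47 of 50 members at 1 TPM or more in all libraries. PSMA5, a core subunit, stood at 2356, 2635 and 2470.2 TPM. PSMA7 stood at 1169, 1127 and 1939 TPM, highest in control 3.

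Cytosolic ribosomal proteins held 4.48% ± 0.419 of TPM and 1.52% of reads, with 82 of 83 members at 1 TPM or more in all libraries and a median level of 379.6 TPM. RPS27A, which is made as a fusion with ubiquitin, was the highest at 2398, 2548 and 2586 TPM. It held 5.6% of the list, so that no single gene set this share. FAU, a ribosomal protein made with a ubiquitin-like leader, stood at 1841, 505 and 544 TPM, over 3 times as high in control 1 as in the others.

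Mitochondrial ribosomal proteins held 1.29% ± 0.176 of TPM and 0.727% of reads. MRPS16 stood at 3361, 2723 and 2687 TPM and MRPL20 at 3427, 2037 and 2034 TPM, both highest in control 1. MRPS14 stood at 1013, 287 and 287 TPM, also highest there. Translation factors held 0.867% ± 0.0315 of TPM and 1.14% of reads, and EIF1, which selects the start codon, led them at 2129, 2474 and 2015 TPM. EIF4A1, the cap helicase, stood at 1377, 1491 and 1812 TPM.

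Nuclear genes of the respiratory chain and ATP synthase held 3.17% ± 0.284 of TPM and 1.03% of reads. Of these genes, 83 of 87 were at 1 TPM or more in all libraries, and the median level was 127 TPM. ATP5PF and ATP5MG, subunits of ATP synthase, stood at 2743, 3056 and 3245 TPM and 2609, 2608 and 2295 TPM. COX5B, a subunit of cytochrome c oxidase, stood at 898, 334 and 235 TPM, highest in control 1.

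Splicing and nuclear RNA processing held 2.42% ± 0.0455 of TPM and 1.62% of reads, with 115 of 128 genes at 1 TPM or more in all libraries. SNRPE and SNRPG, core proteins of the spliceosomal particles, stood at 3177, 3282 and 3000.0 TPM and 1828, 2145 and 1945 TPM. LSM7, of the related LSM ring, stood at 1646, 2008 and 1564 TPM.

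Actin, tubulin and their regulators held 7.11% ± 0.364 of TPM and 2.95% of reads, the largest share of any list by TPM, while by reads maternal mRNA decay, ubiquitin and meiotic kinases held more. TMSB4X made up 83.1% of the list's TPM. TMSB4, another thymosin beta 4 row, stood at 3913, 3421 and 3288 TPM. The reads of both were not whole, so the split between them is uncertain. PFN1, profilin, which also binds monomeric actin, stood at 1989, 2821 and 2599 TPM, lowest in control 1. The actin genes were lower, with ACTB at 199, 283 and 400.2 TPM and ACTG1 at 166, 250.4 and 189.8 TPM, both with divided reads. TUBA1B, an alpha-tubulin, stood at 375, 111 and 109.9 TPM, highest in control 1, with divided reads.

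Calcium and calmodulin signalling held 0.808% ± 0.0413 of TPM and 0.816% of reads, 57.4% of the TPM in CALM2. CALM2, a calmodulin gene, stood at 5089, 4501 and 4306 TPM, highest in control 1, with divided reads. ATP2A2, the calcium pump of the endoplasmic reticulum, stood at 67.1, 68.4 and 80.9 TPM. ITPR1, the receptor that releases calcium at fertilization, stood at 2.54, 2.64 and 5.7 TPM, overlapping ITPR2 at 2.01, 2.51 and 3.82 TPM.

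Apoptosis regulators held 0.583% ± 0.0401 of TPM and 0.569% of reads, 70.99% of the TPM in BCL2L10. BCL2L10, a BCL2 relative found in oocytes, stood at 4289.9, 4345 and 3792 TPM, with divided reads. BAX, the pore-forming protein of mitochondrial apoptosis, stood at 26.3, 27.97 and 60.4 TPM, and the BCL2L10 to BAX ratio of TPM was 163, 155 and 62.8. MCL1, a pro-survival member, stood at 12.3, 14.5 and 10.96 TPM, and BCL2 itself had 4, 0 and 0 reads. CASP6, an effector caspase, stood at 1579, 1425 and 1293 TPM.

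Antioxidant and thiol redox genes held 0.637% ± 0.158 of TPM and 0.443% of reads. GSTM3, a glutathione transferase, stood at 4371, 2443 and 1495 TPM, over 2 times as high in control 1 as in control 3. PRDX1, a peroxiredoxin, stood at 957, 1220.3 and 884 TPM, and SOD1, the cytosolic superoxide dismutase, at 392, 426 and 434 TPM. SOD2, the mitochondrial one, stood at 47.6, 54.5 and 91.3 TPM with an implied length of 197 nt. CAT, catalase, stood at 165, 159 and 159 TPM, and GPX4, the lipid peroxidase, at 28.9, 43.4 and 32.05 TPM.

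FTL was the higher of the ferritin pair, and CS was the highest gene of the glycolysis, pyruvate and citric acid cycle list. FTL held 94.2% ± 2.09 of the ferritin pair, with FTH1 at 145, 316 and 390.4 TPM. Glycolysis, pyruvate and citric acid cycle genes held 0.326% ± 0.0264 of TPM and 0.624% of reads, and CS, citrate synthase, made up 47.1% of the list's TPM at 1399, 1819 and 1390.3 TPM. LDHA, lactate dehydrogenase, stood at 339, 228 and 211 TPM, highest in control 1. PDK3, which inhibits pyruvate dehydrogenase, stood at 147, 201 and 174 TPM.

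Lipid storage and fatty acid oxidation held 0.251% ± 0.0112 of TPM and 0.222% of reads, led by FABP3, a fatty acid carrier, at 1865, 1604 and 1400.5 TPM. PLIN2, a lipid droplet coat protein, stood at 169.9, 197 and 236 TPM. Solute carriers held 0.442% ± 0.00659 of TPM and 0.783% of reads, led by SLC7A3, a transporter of cationic amino acids, at 922, 686 and 781 TPM. SLC25A31, an ADP and ATP carrier of germ cells, stood at 263, 230.1 and 203 TPM, overlapping its relative SLC25A5 at 272, 326 and 243 TPM.

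Nuclear transport held 0.677% ± 0.0486 of TPM and 0.991% of reads. KPNA7, an importin alpha of oocytes and early embryos, stood at 1299, 1887 and 2030.4 TPM, lowest in control 1. KPNA2, the next of 7 importin alpha genes, stood at 137, 136 and 171 TPM, and the KPNA7 to KPNA2 ratio of TPM was 9.46, 13.9 and 11.9. NUP35, a nucleoporin, stood at 1601, 1555 and 1781 TPM.

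The PIWI and piRNA pathway held 0.133% ± 0.00644 of TPM and 0.189% of reads. MAEL stood at 570.2, 761 and 748 TPM and GTSF1, a cofactor of PIWI proteins, at 248, 143 and 155 TPM, highest in control 1. PIWIL3, a PIWI protein that mice lack, stood at 11.5, 10.2 and 10.3 TPM and was above the other PIWI genes, PIWIL2 (2.9 TPM), PIWIL1 (1.95 TPM) and PIWIL4 (0.0567 TPM). DDX25, a germ cell helicase, led the DDX and DHX helicases at 279, 291 and 198 TPM.

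Of the remaining lists, membrane traffic held 1.58% ± 0.0834 of TPM and 1.69% of reads, led by ARF4, a small GTPase of the Golgi, at 3044 ± 237 TPM. DNA damage response and repair held 0.413% ± 0.0134 of TPM and 0.652% of reads, led by RPA3, which binds single-stranded DNA, at 946 ± 24.9 TPM. PCNA, the replication clamp, stood at 808 ± 106 TPM. Chaperones held 0.583% ± 0.0656 of TPM and 0.672% of reads, led by DNAJA1 at 961 ± 144 TPM. Motors held 0.463% ± 0.0504 of TPM and 0.656% of reads, led by the dynein light chain DYNLL1 at 1014 ± 312 TPM. C2H2 zinc finger and BTB factors held 0.529% ± 0.0602 of TPM and 0.635% of reads over 365 genes, 56.1% of the TPM in ZNF706 at 2969 ± 304 TPM. Aminoacyl-tRNA synthetases held the smallest share, 0.0653% ± 0.00548 of TPM and 0.11% of reads, led by RARS2 at 314 ± 15.9 TPM.

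Silence was examined in 31 families, most of them restricted to other tissues, with 717 members in the table. Of these, 273 (38.1%) were silent, beside 14.2% of all genes and 5.03% of the genes in functional lists. The count was 145 where silent meant under 1 read and 521 where it meant under 1 TPM. A further 135 reached 1 TPM in all 3 libraries, 35 of them with reads that were not whole in some transcript. Of all 17852 genes, 9221 reached 1 TPM in all 3 libraries, 1845 of them with such reads. In 12 families at least 50% of members in the table were silent, and in 8 no member reached 1 TPM in all libraries. In others the silent share was nearer to the 14.2% of all genes, as in voltage-gated channels (17.5%) and FOX factors (20.6%). The table holds no row at 0 in all 9 libraries of the series, so family members outside it were not counted. A gene at 0 in every control library is in the table only through a treated library. The counts and shares of silent genes therefore depend on the treated libraries too.

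**Figure D4:**
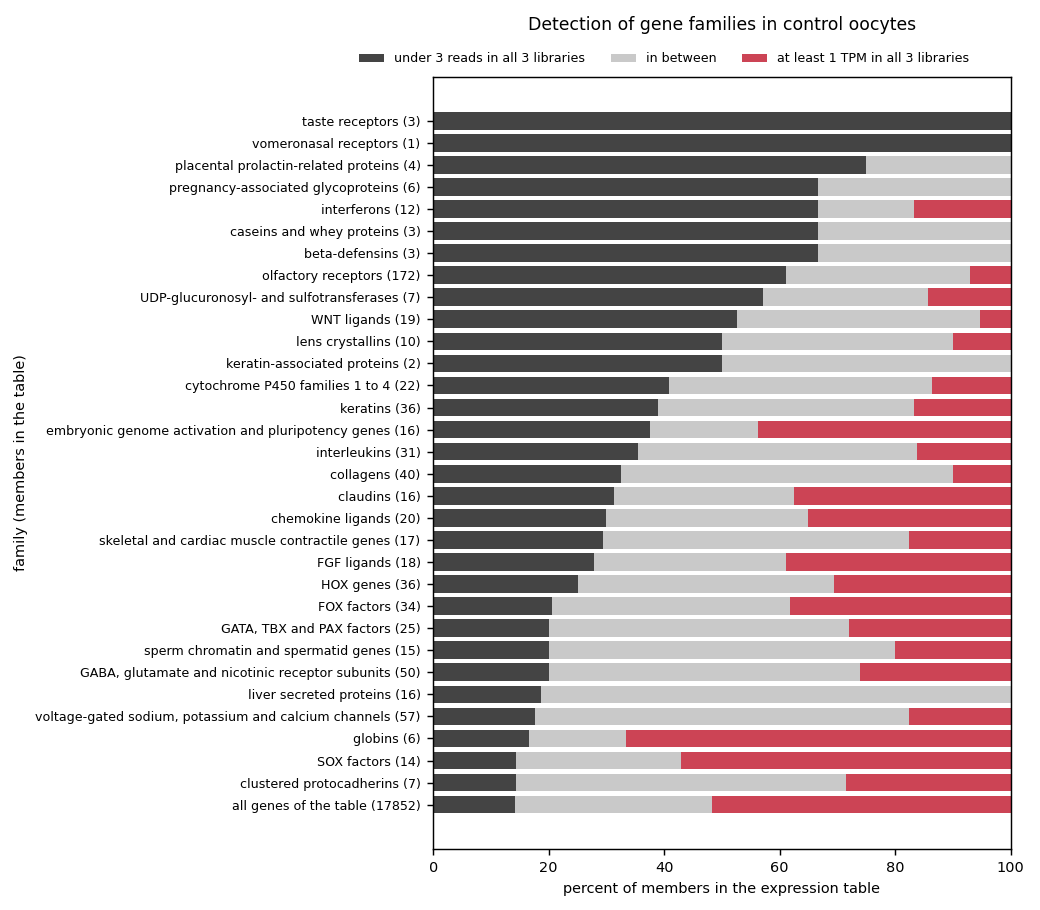
Members of 31 gene families by detection in control oocytes, as percent of the members in the table (their number in parentheses), with all genes of the table for comparison. Silent means under 3 reads in each of the 3 libraries; taste and vomeronasal receptors are silent throughout, beside 14.2% of all genes.

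Olfactory receptors, which detect odours in the nose, were the largest family. RefSeq lists 1070 protein-coding members, of which 172 were in the table. Of these, 105 (61.0%) were silent, beside 14.2% of all genes. Another 12 reached 1 TPM in all libraries, beside 9221 of all 17852 genes. Of these 12, 10 had reads that were not whole. OR4X17 stood well above the rest at 733, 885 and 528 TPM. OR2A69 stood at 92.2, 103 and 144 TPM and OR4B1H at 37.1, 33.8 and 42.1 TPM.

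A pair of olfactory receptors was nearly missing from 1 library. OR4X2B stood at 39.5, 67.1 and 0.19 TPM, from 2459, 4131 and 10.7 reads. OR4X2 stood at 34.8, 65.3 and 0 TPM, from 526, 979.8 and 0 reads. Both were under 0.1 of either other library in control 3, and among genes with a mean of 10 TPM or more these were the only 2 so far below in 1 library. The reads of all 5 receptors named here were not whole, so how they divide among near-identical copies is uncertain. OR4X2 and OR4X2B were chosen after their values were seen.

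Other sensory families were silent. The 3 taste receptors in the table had at most 1 read in any library, and the vomeronasal receptor VN1R1 had none. Among secreted signals of development, 10 of 19 WNT ligands (52.6%) were silent, beside 14.2% of all genes. WNT2B at 1.14, 1.88 and 3.67 TPM was the highest WNT ligand. Of FGF ligands, 5 of 18 (27.8%) were silent, and FGF19 stood at 41.2, 42.6 and 43.3 TPM, second to FGF16.

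HOX genes, which pattern the body axis, were silent in 9 of 36 (25%), beside 14.2% of all genes. Of the 36, 11 reached 1 TPM in all libraries, beside 9221 of all 17852 genes. HOXD1 was the highest at 12.7, 15.03 and 17.3 TPM, followed by HOXD8 at 10.1, 10.5 and 11.6 TPM. FOX factors were silent in 7 of 34 (20.6%), beside 14.2% of all genes. FOXO1, a factor of insulin signalling, stood at 151, 150.4 and 145 TPM, with close values in all libraries, and FOXR1 at 207, 102 and 135 TPM, highest in control 1. Of GATA, TBX and PAX factors, 5 of 25 (20%) were silent, and PAX3, known from the neural crest and muscle, stood at 87.4, 86.9 and 95.2 TPM.

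Immune signals were mostly silent or low. Interferons and genes named for them were silent in 8 of 12 (66.7%), beside 14.2% of all genes. Interleukins and genes named for them were silent in 11 of 31 (35.5%). IL17D was the highest of these 31 at 19.6, 31.9 and 28.5 TPM. Chemokine ligands were silent in 6 of 20 (30%), and CCL25, known from the thymus and gut, stood at 80.2, 101 and 73.3 TPM.

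Most genes of pregnancy and milk were silent. Of the pregnancy-associated glycoproteins, which the placenta secretes, 4 of 6 (66.7%) were silent, beside 14.2% of all genes. PAG1 stood at 0.15, 0.4 and 0.29 TPM. Of placental prolactin-related genes 3 of 4 were silent, and CSH2, a placental lactogen, stood at 1, 4.72 and 0.7 TPM from 18, 88 and 12 reads, highest in control 2. CSN2, beta-casein, had 2, 11 and 0 reads, and PAEP and LALBA, the whey proteins, had none. Liver secreted proteins had no member at 1 TPM in all libraries, the highest being TTR, transthyretin, at 3.21, 1.03 and 0.14 TPM.

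Structural genes of other tissues were mostly low. Keratins were silent in 14 of 36 (38.9%), beside 14.2% of all genes. KRT8, a keratin of simple epithelia, was the highest keratin at 20.7, 18.1 and 31.6 TPM. Collagens were silent in 13 of 40 (32.5%), with COL24A1 the highest at 3.19, 5.37 and 6.92 TPM. Of skeletal and cardiac contractile genes, 5 of 17 (29.4%) were silent, and NEB, nebulin, was the highest at 7.78, 8.24 and 11.2 TPM. Claudins, of tight junctions, were silent in 5 of 16 (31.25%), yet CLDN10 stood at 372, 208 and 236 TPM, highest in control 1.

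Neuronal receptor subunits and clustered protocadherins each gave a single high member too, while voltage-gated channels did not. Subunits of GABA, glutamate and nicotinic receptors were silent in 10 of 50 (20%), beside 14.2% of all genes. CHRNA3, a nicotinic receptor subunit, stood at 214, 256 and 253 TPM. Voltage-gated channels were silent in 10 of 57 (17.5%). Their highest member, KCNE1, stood at 10.7, 6.77 and 8.81 TPM, overlapping KCNH5 at 7.36, 9.19 and 9.24 TPM. PCDHGC3, a clustered protocadherin, stood at 104, 149 and 191 TPM, with reads that were not whole.

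MYF5, known as a muscle determination factor, stood at 1368, 1333 and 1339 TPM, with a CV of 1.36% over the libraries. Its relative MYF6 stood at 11.6, 5.99 and 5.75 TPM, and MYOG had no read. These genes were chosen after their values were seen.

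The 3 highest pluripotency factors stood above the median of all genes, 1.71 TPM. POU5F1 stood at 44.5, 36.4 and 69.5 TPM, SALL4 at 14.2, 16.5 and 36.1 TPM and SOX2 at 12.03, 7.08 and 15.9 TPM. All 3 were highest in control 3. Of the 16 genes of embryonic genome activation and pluripotency in the table, 6 (37.5%) were silent, beside 14.2% of all genes. Of the same 16, 7 reached 1 TPM in all libraries, beside 9221 of all 17852 genes. Among sperm and spermatid genes, 3 of 15 (20%) were silent, beside 14.2% of all genes. ACRV1, an acrosomal protein, was the highest of them at 64.4, 54.1 and 52.4 TPM.

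Transcript choice was described for genes with 2 or more transcripts in the table and at least 10 TPM in all libraries. These were 447 of 2072 genes with several transcripts, and held 8.25% of TPM, since most abundant genes had a single transcript in the table. The median share of gene TPM on the major transcript was 73.7%. The major transcript held over 90% in 129 genes, 50 to 90% in 272 and under 50% in 46. The second transcript held at least 20% in 208 genes, or 46.5%.

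The major transcript was not the same in all 3 libraries for 61 genes, and in 31 of these the mean gap between the first and the second was under 10 points. With only 2 libraries compared, the number was 45 without control 1, 45 without control 2 and 37 without control 3. By implied length, the major transcript was shorter than the second in 89 of the 208 genes with a large second transcript. By reads in place of TPM, the major transcript was another one in 21 genes. The authors' transcript counts are estimates, and so are these shares.

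**Figure D5:**
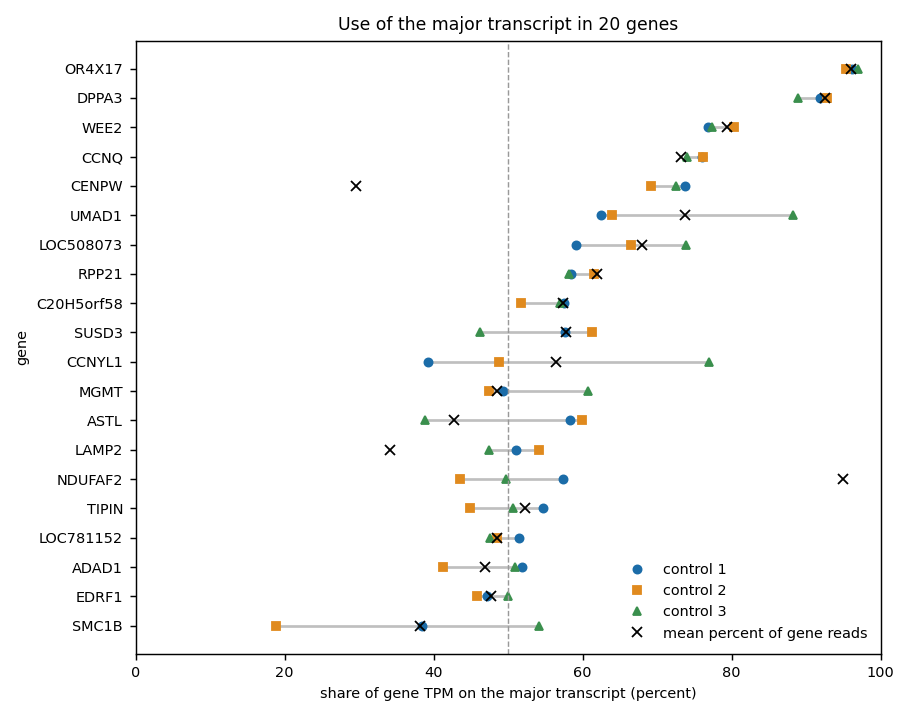
Share of gene TPM on the major transcript in each control library for 20 genes, with the mean share of gene reads as a cross and a dashed line at 50%. OR4X17 and DPPA3 lie near the right edge in all 3 libraries, CENPW, NDUFAF2 and LAMP2 differ widely between TPM and reads, and SMC1B, CCNYL1 and UMAD1 spread widely between libraries.

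Some genes used 1 transcript steadily. The lengths of transcripts and rows given here and below are implied lengths, which can differ from the annotated ones. DPPA3 had 91.8, 92.8 and 88.9% of its TPM on 1 of 2 transcripts, and CCNQ had 76.01, 76.1 and 74.03% on 1 of 9. OR4X17 had 96.2, 95.3 and 96.99% on 1 of 2. WEE2 had 76.8, 80.3 and 77.4% on a transcript of 2979 nt and 22.5, 18.9 and 21.2% on one of 2830.4 nt. DPPA3, CCNQ and OR4X17, with SMC1B and ASTL below, were added after the values were seen.

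In other genes the shares by TPM and by reads were far apart. CENPW, a centromere protein, had 73.7, 69.1 and 72.5% of its TPM on a row of 77.2 nt, which took 29.5% of its reads. NDUFAF2, an assembly factor of complex I, had 42.7, 56.4 and 50.3% of its TPM on a row of 12.2 nt that had 24, 40 and 41 reads. LAMP2, a lysosomal membrane protein, had 51.01, 54.2 and 47.5% on a transcript of 1508 nt, which took 34.2% of its reads, beside one of 3012 nt. In these 3 genes the longer transcript took more of the reads in every library.

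In several genes the first and second transcripts were near parity. TIPIN, a replication fork protein, had 54.7, 44.8 and 50.6% of its TPM on one and 45.1, 55.2 and 49.4% on the other. EDRF1 had 47.1, 45.9 and 49.98% and 46.8, 49.4 and 46.5%. MGMT, a DNA repair enzyme, had 49.3, 47.5 and 60.8% and 50.7, 52.5 and 38.96%. In each of these the order changed between libraries, as it did in SUSD3 (57.6, 61.3 and 46.2% on the first) and ADAD1 (51.8, 41.3 and 50.9% on the first).

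In a second group the same transcript led in all 3 libraries. RPP21, a subunit of RNase P, had 58.4, 61.5 and 58.2% on its major transcript, and C20H5orf58 had 57.5, 51.7 and 56.96%. LOC781152 had 51.4, 48.5 and 47.6%, with its major transcript under 50% in 2 libraries. LOC508073 had 59.1, 66.5 and 73.9%, lowest in control 1.

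Wide differences between libraries were seen in UMAD1, with 62.5, 63.9 and 88.3% on its major transcript, and in CCNYL1, a cyclin Y relative, with 39.2, 48.7 and 76.96%. Both were highest in control 3. SMC1B had 38.4, 18.9 and 54.1% on one transcript and 41.2, 48.9 and 18.4% on another. ASTL, ovastacin, the protease that cleaves ZP2 after fertilization, had 58.3, 59.96 and 38.8%, lowest in control 3.

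The share moved by 20 points or more between libraries in 78 of the 447 genes. The library farthest from the middle one was control 3 in 36 of them, control 1 in 26 and control 2 in 16. Examples, chosen after their values were seen, were PPP4R1, a phosphatase subunit, with 4.28, 61.5 and 100% on its major transcript, and CCNB3 with 90.4, 61.8 and 34.8%.

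Over the 4941 genes with a mean of at least 10 TPM, the median CV was 17.7%. It was 13.2% at 100 TPM or more and 10.9% at 1000 TPM or more. Pearson's r of log2(TPM + 1) across the 4941 genes, which are not independent replicates, was 0.978 between control 1 and control 2. It was 0.956 between control 1 and control 3, and 0.964 between control 2 and control 3. Without control 3 the median CV was 10.2%.

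Control 3 was over 2 times both others in 207 of the 4941 genes, control 1 in 61 and control 2 in 13. The median implied length of these genes was 1797 nt for control 3 and 611 nt for control 1. Over the 5 length classes, the median log2 deviation of control 3 from the gene's mean level went from 0.01 in the shortest to 0.25 in the longest. That of control 1 went from 0.00 to -0.18. The part of length in the levels that were highest in control 1 or control 3 was not tested.

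Of genes at 100 TPM or more on average, LOC104974923, a pseudogene, had the largest CV, at 205, 139 and 776 TPM. FANK1 stood at 205, 48.4 and 57 TPM and POLR2G, an RNA polymerase II subunit, at 299.7, 111 and 77.98 TPM, both highest in control 1. MRPS14, FAU, TUBA1B and COX5B, given above, and 1 gene without a match made up the rest of the 8 most variable. LOC104974923 and the gene without a match were highest in control 3, the other 6 in control 1.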

How the data were processed

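Bovine metaphase II oocytes were sequenced, and the 3 control libraries were used. The table deposited by the authors has, per the file headers, an estimated count, a TPM and an FPKM value for every transcript in every library, with the gene ID it belongs to. Aligner, counter, build and annotation were not given in the sources used. The authors' normalized counts and their 12 columns of group means were left aside.

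Gene values are sums of TPM and of reads over a gene's transcripts. Estimated counts were not rounded, since no count test was run. Counts were whole in all 3 libraries for 71.7% of transcripts. The implied length of a transcript was computed from its deposited estimated count and FPKM. Gene IDs were matched to the RefSeq table of assembly ARS-UCD2.0, for names and neighbours only: 16995 of 17852 genes matched by gene ID, 2 by transcript accession and 855 not at all, and the unmatched genes held 4.15% of TPM.

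This is a description of 1 group, with no comparison between groups and no test of one. The members and lists were chosen with earlier results of these data known. Named genes were the 30 with the highest mean TPM, all oocyte markers, up to 4 members of each list and 3 of each family by mean TPM, the 8 with the highest CV at 100 TPM or more, and, for transcripts, the 8 highest genes with a second transcript at 20% and the 8 highest whose major transcript differed between libraries. Some members of the lists are not reported here. Members of the 31 sets and others said to be so were chosen after values were seen. Genes under 3 reads in all libraries were called silent. Counts of the 3 libraries differed by more than counting noise (chi-square per degree of freedom 40.2 to 84.2), so each was counted as 1 library, which does not show that they are separate biological samples. The scripts were tested on simulated data. Python 3.11.15, numpy 2.4.6, pandas 2.3.3 and matplotlib 3.10.9 were used.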

Additional observations from a re-analysis of the deposited data

How the results depend on the processing

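Counted as shares of reads in place of TPM, the 10 most abundant genes held 15.4%, the 100 most abundant 35.5%, and 290 genes made up 50%. On that scale the shares were 2.68% for oocyte secreted proteins, 5.60% for maternal mRNA decay, 3.08% for meiotic kinases and cyclins, 1.52% for cytosolic ribosomal proteins, 1.03% for the respiratory chain, 2.95% for actin and tubulin and 39.6% for all lists. Ubiquitin genes moved by less than the spread. Without BTG4 the 10 most abundant genes held 19.6%, decay 0.152% and all lists 45.4%. Transcripts with an implied length under 200 nt were also left out, an alternative added after the data were seen. This gave 3.38% for meiotic kinases, 3.96% for ribosomal proteins, 2.55% for the respiratory chain and 45.8% for all lists. Silent family members numbered 145 under 1 read and 521 under 1 TPM. Isoform counts followed the level required: at 1 TPM, 526 genes had a large second transcript, 231 a differing major one and the median share was 74.6%, and at 50 TPM these were 51, 14 and 77.6%. Leaving out 1 library at a time gave 37 to 45 genes with a differing major transcript (61 with all 3 libraries, where more can differ by construction), the 37 without control 3, a median share of 73.8% to 74.8% and a median CV of 10.2% to 17.8%, the low CV being without control 3. The lowest correlation was 0.970 at a mean of 1 TPM or more. Apart from construction, the causes were not tested. No paired analysis was possible because no groups were compared and no test was run. With 3 libraries of unstated origin, genes near 3 reads cannot be called present or absent. Levels in TPM on rows with an implied length under 200 nt depend strongly on that short length.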

Other observations

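A few values of the control oocytes belong in none of the descriptions above. The genes next to the 30 most abundant ones in RefSeq's order were mostly far below them, though above the typical gene: 47 neighbours were in the table, their median was 4.57 TPM against 1.71 TPM over all genes, 16 were under 1 TPM and 1 reached 1000 TPM. BTG4 lies beside POU2AF1 (0.0967 ± 0.095 TPM), ZP2 beside LDAF1 (573 ± 49.1 TPM), UBB beside CENPV (2596 ± 283 TPM), and DPPA3 beside GDF3 (81.2 ± 16.6 TPM).

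RGS2, a regulator of G-protein signalling, stood at 956, 1958 and 569.7 TPM, with divided reads, and was highest in control 2. KNSTRN, a kinetochore protein, stood at 1694, 1709 and 1721 TPM, with the smallest spread of all genes over 1000 TPM. These genes were chosen after their values were seen.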
